A study of Mus musculus with 7 samples.

Results

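Thromboxane and leukotriene synthesis was examined through 9 genes, Pla2g4a, Ptgs1, Tbxas1, Hpgds, Alox5, Alox5ap, Ltc4s, Alox12 and Cyp4f18, found by symbol among the 21615 genes of the count table. They were selected on their measured values in the comparison described here, CD48-/lo against CD48hi megakaryocyte progenitors (MkPs) over the same 7 libraries. Their levels and differences are therefore given as a description, with no test. The selection named genes and set no threshold on a value, so there is no margin of genes just inside or outside it.

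The study followed how platelets arise from hematopoietic stem cells in mice and separated MkPs, the bone marrow cells committed to megakaryocytes, by their surface CD48. Bulk RNA was sequenced from 3 libraries of CD48-/lo MkPs and 4 libraries of CD48hi MkPs. All were sorted as lin- CD117+ Sca-1- CD150+ CD41+ cells from the bone marrow of wild-type C57BL/6 mice, and the age of the mice is not stated in the labels. The CD48-/lo libraries (replicates 1, 3 and 4) came from 5348 to 6497 cells and the CD48hi libraries (replicates 1, 3, 4 and 5) from 14033 to 20826 cells, so cell number and subset cannot be told apart.

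Arachidonic acid, a fatty acid held in membrane phospholipids, is freed by cytosolic phospholipase A2 and then oxidized along separate branches. Cyclooxygenase and thromboxane synthase make thromboxane A2, the lipid by which activated platelets recruit further platelets, and megakaryocytes carry these enzymes into the platelets they shed. The 5-lipoxygenase branch makes leukotrienes and is best known from granulocytes, mast cells and macrophages, whereas 12-lipoxygenase of the platelet type makes 12-HETE. Of the 9 genes, Hpgds makes prostaglandin D2, Alox12 makes 12-HETE and Cyp4f18 inactivates leukotriene B4, so these 3 make neither a thromboxane nor a leukotriene.

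Ptgs1, Tbxas1 and Pla2g4a, which lead to thromboxane, had higher mean levels in CD48-/lo MkPs, by 1.86-fold, 1.74-fold and 1.48-fold, but of these 3 only Ptgs1 was higher in every CD48-/lo library than in every CD48hi library. The leukotriene genes Alox5, Alox5ap and Ltc4s were present in both subsets and overlapped. Cyp4f18 was the gene with the plainest contrast, with 0 counts in all 3 CD48-/lo libraries and 378 counts over the 4 CD48hi libraries. Alox12 was high in a single CD48-/lo library, and Hpgds, present at traces, varied several-fold within each subset.

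Library totals were 48899037 to 51161449 counts in CD48-/lo MkPs and 51537445 to 69324909 in CD48hi MkPs. Levels are CPM, a gene's counts relative to 1000000 counts of its library after scaling by the trimmed mean of M-values (TMM), and differences are log2 of CD48-/lo over CD48hi with their standard error (SE). The Cd48 transcript averaged 10.1 ± 4.65 CPM in CD48-/lo MkPs and 28.9 ± 11.8 CPM in CD48hi MkPs (SD, n = 3 and 4), with no overlap. All 14 megakaryocyte markers listed were present, summing to 4565 to 7357 CPM in CD48-/lo libraries and 5149 to 6420 CPM in CD48hi libraries. Mitochondrially encoded genes took 0.482 to 2.91% of the counts in CD48-/lo libraries, against 0.138 to 0.4% in CD48hi libraries, and CD48-/lo replicate 3, at the low end of its subset, stood apart from replicates 1 and 4 for several genes below. Over all 16653 genes tested, the quasi-likelihood test of edgeR with Benjamini-Hochberg adjustment called 32 genes, 14 with CD48-/lo above CD48hi and 18 below, or 0.192%. The subsets did not overlap for 7.52% of genes with CD48-/lo higher and for 7.06% with CD48-/lo lower. DESeq2 called 5.86% of the genes it adjusted. Among the 9 genes the counts were 1 called by edgeR, 2 by DESeq2, 1 without overlap and higher, and 1 without overlap and lower; nothing is read from them, because the genes were selected on this contrast. In bulk RNA, fewer cells of a type and less RNA per cell cannot be told apart.

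Levels can be ranked between genes only after division by gene length. By mean CPM per kilobase, Alox5ap was the most abundant, with 133 ± 5.45 in CD48-/lo MkPs and 97.7 ± 57.7 in CD48hi MkPs (SD, n = 3 and 4 here and below), at percentile 95.5 of all tested genes. Pla2g4a followed with 47.9 ± 13.3 CPM per kilobase in CD48-/lo MkPs and 32.3 ± 10.6 in CD48hi MkPs. Ptgs1 had 43.7 ± 8.70 CPM per kilobase in CD48-/lo MkPs and 23.5 ± 4.54 in CD48hi MkPs. Pla2g4a and Ptgs1 did not differ from each other beyond this spread. Tbxas1 came next with 27.6 ± 10.5 CPM per kilobase in CD48-/lo MkPs and 15.9 ± 6.08 in CD48hi MkPs, with its libraries all under those of Ptgs1 in CD48-/lo MkPs and overlapping them in CD48hi MkPs. Alox5 had 10.9 ± 3.57 CPM per kilobase in CD48-/lo MkPs and 13.8 ± 2.80 in CD48hi MkPs.

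The 4 remaining genes were low. Ltc4s had 3.05 ± 1.06 CPM per kilobase in CD48-/lo MkPs and 3.95 ± 0.859 in CD48hi MkPs, at percentile 49.1. Alox12 had 2.98 ± 3.11 CPM per kilobase in CD48-/lo MkPs and 0.851 ± 0.341 in CD48hi MkPs, at percentile 37.6. Cyp4f18 had 0 CPM per kilobase in CD48-/lo MkPs and 0.878 ± 0.415 in CD48hi MkPs. Hpgds was the lowest over all 7 libraries, at percentile 13.7, though above Cyp4f18 in CD48-/lo MkPs, with 0.475 ± 0.293 CPM per kilobase in CD48-/lo MkPs and 0.158 ± 0.114 in CD48hi MkPs. Higher percentiles were held by Pla2g4a (86.9), Ptgs1 (84.6) and Tbxas1 (78.8).

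**Figure D1:**
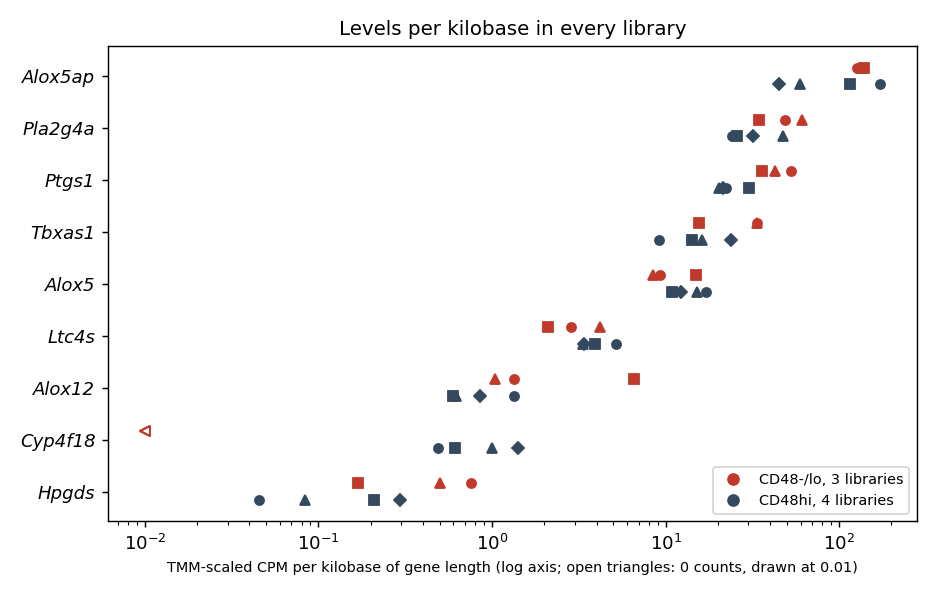
Level of the 9 genes in every library, in TMM-scaled CPM per kilobase of gene length on a log axis, with CD48-/lo in red and CD48hi libraries in blue-grey. Circles, squares, triangles and diamonds are replicates 1, 3, 4 and 5, and the open red triangles mark the 0 counts of Cyp4f18 in CD48-/lo libraries. Alox5ap, Pla2g4a, Ptgs1 and Tbxas1 lie at the top, and the subsets separate for Ptgs1 and Cyp4f18 only.

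Pla2g4a encodes cytosolic phospholipase A2 alpha, which frees arachidonic acid at internal membranes when calcium rises (mm10 chr1:149829618-149961290, minus strand). Its level was 310.4, 219.6 and 389 CPM in CD48-/lo replicates 1, 3 and 4, against 154, 165, 303 and 203.5 CPM in CD48hi replicates 1, 3, 4 and 5. CD48hi replicate 4 stood among the CD48-/lo libraries and CD48-/lo replicate 3 among the CD48hi libraries, so the subsets overlapped. As a log2 difference this was 0.57 ± 0.32 (SE).

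Ptgs1 encodes cyclooxygenase-1, the constitutive cyclooxygenase of platelets (mm10 chr2:36230426-36252272, plus strand). Its level was 206, 139 and 165 CPM in CD48-/lo replicates 1, 3 and 4, against 87.0, 117, 78.7 and 82.6 CPM in CD48hi replicates 1, 3, 4 and 5. Every CD48-/lo library was above every CD48hi library, with the smallest gap between CD48-/lo replicate 3 and CD48hi replicate 3. The log2 difference was 0.89 ± 0.27 (SE), and it was 0.62 without CD48-/lo replicate 1. The inducible cyclooxygenase, Ptgs2, had 44, 0 and 1 counts in CD48-/lo replicates 1, 3 and 4 and 1 count in all over the 4 CD48hi libraries, so nearly all cyclooxygenase counts were those of Ptgs1.

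Tbxas1 encodes thromboxane A synthase, which turns the cyclooxygenase product into thromboxane A2 (mm10 chr6:38875404-39084585, plus strand). Its level was 306, 141 and 307 CPM in CD48-/lo replicates 1, 3 and 4, against 83.5, 129.8, 147 and 217 CPM in CD48hi replicates 1, 3, 4 and 5. CD48-/lo replicates 1 and 4 were higher than all CD48hi libraries, whereas CD48-/lo replicate 3 lay between CD48hi replicates 3 and 4. The log2 difference was 0.80 ± 0.38 (SE). Tbxas1 overlaps Hipk2 on the opposite strand, and no source used here says whether strand entered the counting. Hipk2 held 5062 counts in CD48-/lo libraries, against 6622 in CD48hi libraries, few beside the Tbxas1 counts of 38831 in CD48-/lo MkPs and 33469 in CD48hi MkPs, and its log2 difference was 0.18 (edgeR adjusted p = 0.805).

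The ratio of Tbxas1 to Ptgs1, taken per kilobase within each library, was 0.636, 0.434 and 0.795 in CD48-/lo replicates 1, 3 and 4, against 0.410, 0.472, 0.800 and 1.121 in CD48hi replicates 1, 3, 4 and 5. All 3 ratios of CD48-/lo MkPs lay within the range of the CD48hi libraries.

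The stretches upstream of Ptgs1 and Tbxas1, the thromboxane genes with the higher means in CD48-/lo MkPs, are shown with those of Alox12, high in a single library, and Cyp4f18, without counts in CD48-/lo MkPs. Each is the 250 bases before the RefSeq start in GRCm38.p6, read 5′ to 3′ on the strand of the gene: chr2:36230176-36230425 (plus) for Ptgs1, chr6:38918736-38918985 (plus) for Tbxas1, chr11:70255371-70255620 (minus) for Alox12 and chr8:72009627-72009876 (minus) for Cyp4f18. The RefSeq start of Tbxas1 lies inside the gene as the count table bounds it, downstream of its first base. Capitals mark matches on either strand to the letters AGATAA (known from sites of GATA factors), AGGAAG (ETS factors), TGTGGT (RUNX factors), TGAGTCA (NF-E2), GGGCGG (the GC box) and TATAAA (the box of that name).
Ptgs1: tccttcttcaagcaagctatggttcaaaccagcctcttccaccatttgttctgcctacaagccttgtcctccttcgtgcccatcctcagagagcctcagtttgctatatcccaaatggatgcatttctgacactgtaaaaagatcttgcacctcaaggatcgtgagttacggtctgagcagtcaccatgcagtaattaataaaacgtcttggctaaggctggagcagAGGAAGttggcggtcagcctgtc
Tbxas1: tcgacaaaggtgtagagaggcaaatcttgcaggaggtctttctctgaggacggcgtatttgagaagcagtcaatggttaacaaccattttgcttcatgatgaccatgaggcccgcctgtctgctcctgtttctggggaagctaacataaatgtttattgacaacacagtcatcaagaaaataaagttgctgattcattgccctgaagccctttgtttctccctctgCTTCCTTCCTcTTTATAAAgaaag
Alox12: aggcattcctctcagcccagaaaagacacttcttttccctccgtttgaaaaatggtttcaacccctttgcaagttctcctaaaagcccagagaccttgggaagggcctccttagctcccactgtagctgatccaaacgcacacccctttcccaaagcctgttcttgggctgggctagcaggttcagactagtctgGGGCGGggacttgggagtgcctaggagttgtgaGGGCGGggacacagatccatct
Cyp4f18: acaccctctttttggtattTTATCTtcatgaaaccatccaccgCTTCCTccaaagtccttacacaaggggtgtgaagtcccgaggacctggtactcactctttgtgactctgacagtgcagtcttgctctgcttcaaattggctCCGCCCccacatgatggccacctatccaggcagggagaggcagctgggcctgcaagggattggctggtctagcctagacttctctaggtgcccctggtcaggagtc

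The Ptgs1 stretch held an ETS match 23 bases before the start. The Tbxas1 stretch held ETS matches 24 and 20 bases before the start on the opposite strand, sharing letters where they meet, and overlapping TATA box matches on both strands. Alox12 held GC boxes 55 and 22 bases before its start, and Cyp4f18 held letters of GATA, ETS and GC box sites on the opposite strand, 231, 207 and 106 bases before its start. RefSeq windows were matched for 8 of the 9 genes, all but Alox5ap, as 9 windows, because Pla2g4a had more than 1 start. ETS letters stood in 6 of these windows, GC box letters in 3, RUNX and TATA box letters in 2 each, GATA letters in 1 and NF-E2 letters in 0. Over 32817 RefSeq promoter windows of the same length, ETS letters stood in 29.5%, GC box in 32.7%, RUNX in 14%, TATA box in 12.4%, GATA in 9.99% and NF-E2 in 4.46%. These matches describe the letters of the windows and are not binding sites.

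Hpgds encodes hematopoietic prostaglandin D synthase, the other terminal synthase among the 9 genes (mm10 chr6:65117293-65144908, minus strand). Its level was 4.84, 1.09 and 3.24 CPM in CD48-/lo replicates 1, 3 and 4 (257, 57 and 160 counts), against 0.293, 1.34, 0.539 and 1.88 CPM in CD48hi replicates 1, 3, 4 and 5 (19, 73, 28 and 116 counts). CD48-/lo replicates 1 and 4 were above all CD48hi libraries, and CD48-/lo replicate 3 was within their range. The log2 difference was 1.59 ± 0.73 (SE), and the highest library exceeded the lowest by 4.45 times within CD48-/lo MkPs and by 6.43 times within CD48hi MkPs. Hpgds is also a gene of mast cells and basophils, whose 9 detected markers summed to 11.04 to 27.7 CPM in CD48-/lo libraries. Their sum was 47.1 to 128 CPM in CD48hi libraries. Cd200r3 had 0 counts in CD48-/lo libraries and in CD48hi replicates 1 and 3, with 85 and 84 counts in CD48hi replicates 4 and 5. By mean, 8 of the 9 were lower in CD48-/lo MkPs. The exception was Fcer1a, a chain of the IgE receptor, with 16.03, 2.44 and 13.3 CPM in CD48-/lo replicates 1, 3 and 4, against 3.72 to 5.88 CPM in CD48hi libraries. The part of such cells in the Hpgds level was not tested.

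**Figure D2:**
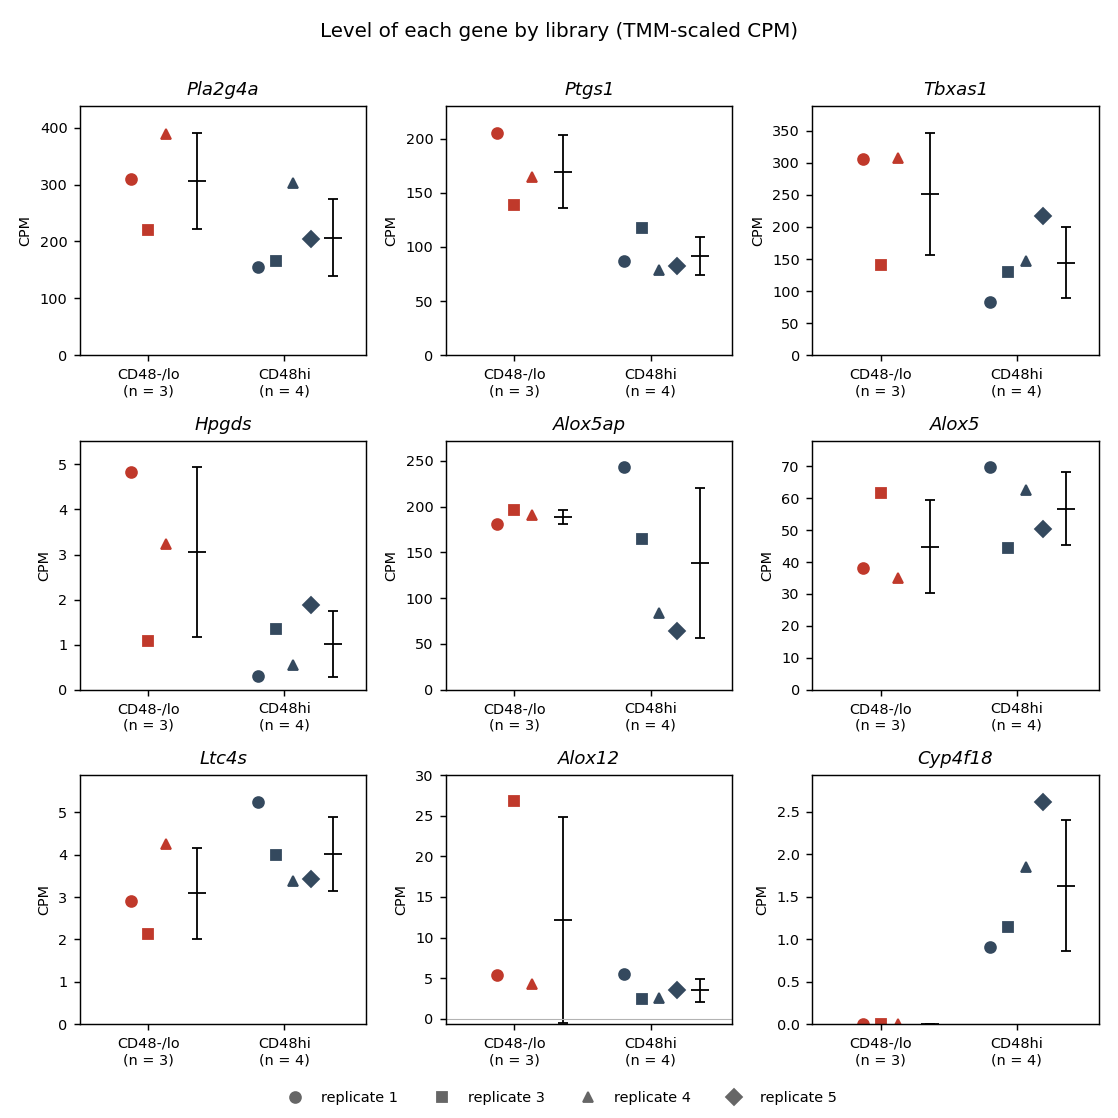
TMM-scaled CPM of each gene in the 3 CD48-/lo libraries (red, left) and the 4 CD48hi libraries (blue-grey, right), with the horizontal bar at the mean and whiskers of 1 SD. Marker shapes give the replicate number, and each panel has its own axis. Ptgs1 lies between 139 and 206 CPM in CD48-/lo libraries, above the 78.7 to 117 CPM of CD48hi libraries, and Alox12 reaches 26.8 CPM in CD48-/lo replicate 3 alone.

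Alox5ap encodes the 5-lipoxygenase activating protein, which presents arachidonic acid to the enzyme at the nuclear envelope (mm10 chr5:149264767-149288153, plus strand). Its level was 181, 196 and 190.4 CPM in CD48-/lo replicates 1, 3 and 4, against 243, 164, 84.1 and 63.6 CPM in CD48hi replicates 1, 3, 4 and 5. The CD48-/lo libraries were close together, within 1.09 times of each other, while the CD48hi libraries spread over 3.82 times and extended both above and below them. The log2 difference was 0.45 ± 0.42 (SE).

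Alox5 encodes 5-lipoxygenase itself, which makes leukotriene A4 (mm10 chr6:116410077-116461178, minus strand). Levels were 38.1, 61.7 and 34.9 CPM in CD48-/lo replicates 1, 3 and 4, against 69.7, 44.4, 62.5 and 50.2 CPM in CD48hi replicates 1, 3, 4 and 5. CD48-/lo replicates 1 and 4 were below every CD48hi library, and replicate 3 was among them. This gave a log2 difference of -0.34 ± 0.31 (SE), or of -0.77 without CD48-/lo replicate 3. The ratio of Alox5ap to Alox5, per kilobase within each library, was 13.7, 9.19 and 15.8 in CD48-/lo replicates 1, 3 and 4, against 10.1, 10.7, 3.89 and 3.66 in CD48hi replicates 1, 3, 4 and 5. Per kilobase, Alox5ap transcript counts exceeded those of Alox5 in every library, by least in CD48hi replicates 4 and 5. Protein was not measured.

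Ltc4s encodes leukotriene C4 synthase, which joins glutathione to leukotriene A4 to make the cysteinyl leukotrienes (mm10 chr11:50236461-50238616, minus strand). Its level was 2.90, 2.12 and 4.25 CPM in CD48-/lo replicates 1, 3 and 4 (154, 111 and 210 counts), against 5.25, 3.99, 3.37 and 3.43 CPM in CD48hi replicates 1, 3, 4 and 5 (340, 217, 175 and 211 counts). CD48-/lo replicate 4 lay within the CD48hi range and the other two below it. This gave a log2 difference of -0.38 ± 0.40 (SE). Gm26542, an antisense gene that overlaps Ltc4s, had 136 counts in CD48-/lo libraries, against 183 in CD48hi libraries, beside Ltc4s counts of 475 in CD48-/lo MkPs and 943 in CD48hi MkPs. Without strand, reads of Ltc4s and Gm26542 cannot be told apart.

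Alox12 encodes the platelet-type 12-lipoxygenase (mm10 chr11:70241457-70255353, minus strand). Its level was 5.44, 26.8 and 4.25 CPM in CD48-/lo replicates 1, 3 and 4 (289, 1405 and 210 counts), against 5.45, 2.45, 2.54 and 3.48 CPM in CD48hi replicates 1, 3, 4 and 5 (353, 133, 132 and 214 counts). CD48-/lo replicate 3 alone was high, and CD48-/lo replicate 1 was level with CD48hi replicate 1. The log2 difference of 1.80 ± 0.62 (SE) rested on that library and was 0.32 without it. In the same library the 6 detected eosinophil markers summed to 30.4 CPM, against 3.65 and 4.08 CPM in CD48-/lo replicates 1 and 4 and 20.7 to 49.8 CPM in CD48hi libraries. Prg2, a major basic protein gene, supplied 21.6 of the 30.4 CPM. Epx, Ccr3, Prg3 and Ear2 had 3.38, 4.48, 0.343 and 0.286 CPM there, each above CD48-/lo replicates 1 and 4. Only Siglecf was lower there, with 0.305 CPM, against 3.11 and 3.84 CPM in CD48-/lo replicates 1 and 4. In that library the megakaryocyte markers were at their lowest sum, 4565 CPM. Pf4, the largest part of it, had 1537 CPM there, against 3353 and 3989 CPM in CD48-/lo replicates 1 and 4. Gp5, Gp1bb, Itgb3 and Rab27b were highest of the subset in that library, and the other listed megakaryocyte markers were lowest. The part of eosinophil or megakaryocyte transcripts in the Alox12 level was not tested.

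CD48-/lo replicate 3 was also the lowest of its subset for Pla2g4a, Ptgs1, Tbxas1, Hpgds and Ltc4s and the highest for Alox5, Alox5ap and Alox12. It was the CD48-/lo library with the smallest mitochondrial share of counts, 0.482%, and the part of RNA quality in these values was not tested. Within CD48hi MkPs, replicate 1 had the highest Alox5ap level and the lowest Tbxas1 and Cyp4f18 levels, and replicate 5 had the lowest Alox5ap level and the highest Tbxas1 and Cyp4f18 levels.

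Cyp4f18 encodes a cytochrome P450 that hydroxylates leukotriene B4 and so ends its action, and it is known from mouse neutrophils and other myeloid cells (mm10 chr8:71988482-72009626, minus strand). It had 0 counts in CD48-/lo replicates 1, 3 and 4, against 0.910, 1.14, 1.85 and 2.62 CPM in CD48hi replicates 1, 3, 4 and 5 (59, 62, 96 and 161 counts). The subsets did not overlap. Over the CD48-/lo libraries together, 0 counts allow a level of up to 3 counts, or 0.0194 CPM, and against that floor Cyp4f18 was at least 83.9-fold lower in CD48-/lo MkPs. The floor covers counting error only, and amplified reads without molecular identifiers are not independent molecules.

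Cyp4f18 overlaps Zfp961 on the opposite strand, which held 62.5 to 79.8 CPM in CD48-/lo libraries and 52.4 to 66.0 CPM in CD48hi libraries, with a log2 difference of 0.29 (edgeR adjusted p = 0.57). Only uniquely aligned reads were counted, so reads shared with similar genes of the Cyp4f family would be lost from both subsets. The 7 detected markers of granulocyte-monocyte progenitors summed to 58.2 to 140.2 CPM in CD48-/lo libraries and 383 to 561 CPM in CD48hi libraries, with 6 of the 7 lower in CD48-/lo MkPs. The 12 markers of monocytes, macrophages and dendritic cells summed to 7.36 to 13.3 CPM in CD48-/lo libraries. Their sum was 32.7 to 101 CPM in CD48hi libraries. By mean, 9 of the 12 were lower in CD48-/lo MkPs and 3, Cd14, Adgre1 and Cd68, were higher. Itgax had 0 counts in CD48-/lo libraries and in CD48hi replicates 1 and 5, with 5 and 20 counts in CD48hi replicates 3 and 4. The 8 detected neutrophil markers were mixed, with 4 above and 4 below their CD48hi means in CD48-/lo MkPs. They summed to 4.04 to 24.2 CPM in CD48-/lo libraries and 6.68 to 12.6 CPM in CD48hi libraries. Ltf had 17 counts in CD48hi replicate 1 and 0 in every other library of either subset. S100a8 made up most of the neutrophil sum in CD48-/lo replicates 1 and 4, with 14.2 and 11.1 CPM. Mmp8, a collagenase of neutrophil granules, was the only neutrophil marker without overlap. It had 0.0377, 0 and 0.142 CPM in CD48-/lo replicates 1, 3 and 4, against 0.828 to 1.47 CPM in CD48hi libraries. Also lower in CD48-/lo MkPs without overlap were 3 of the 7 granulocyte-monocyte progenitor markers and 7 of the 12 monocyte, macrophage and dendritic cell markers. The same held for 5 of the 9 basophil and mast cell markers and for 7.06% of all tested genes. The part of myeloid cells or myeloid transcripts in the Cyp4f18 level was not tested.

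Leaving out each library in turn changed the sign of no difference among the 8 genes with counts in both subsets. The log2 difference ranged from 0.62 to 1.04 for Ptgs1, 0.50 to 1.06 for Tbxas1, 0.36 to 0.81 for Pla2g4a, 0.21 to 0.81 for Alox5ap, 0.96 to 2.07 for Hpgds, 0.32 to 2.21 for Alox12, -0.77 to -0.19 for Alox5 and -0.68 to -0.29 for Ltc4s. The unchanged signs lend no support to any of these differences, because the genes were selected on this contrast over the same libraries. The size for Alox12 depended on CD48-/lo replicate 3.

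**Figure D3:**
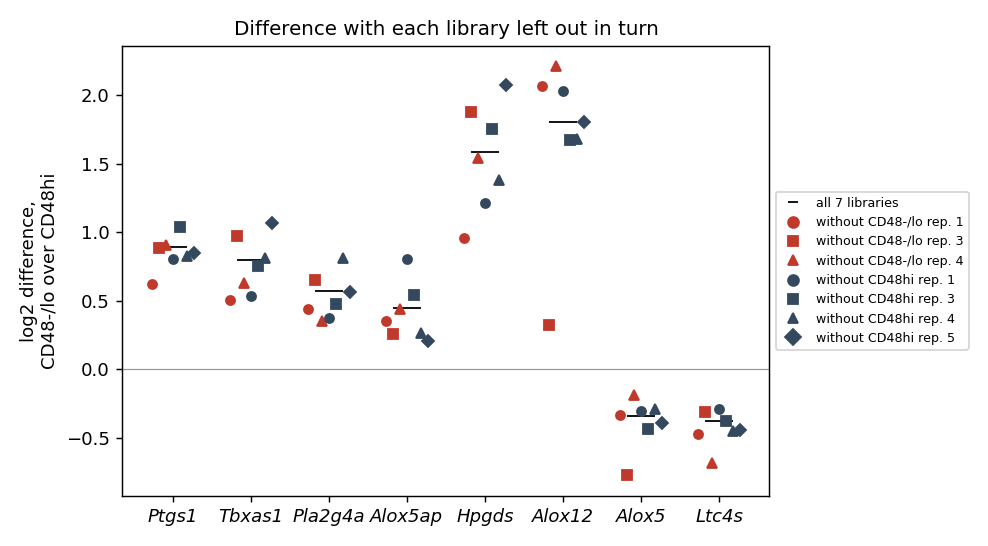
Log2 difference of CD48-/lo over CD48hi for the 8 genes with counts in both subsets, with each library left out in turn (colour by subset and shape by replicate of the library left out), beside the value with all 7 libraries (short bar). The value for Alox12 is 0.32 without CD48-/lo replicate 3 and at least 1.67 without any other library, and no gene crosses 0.

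The wider pathway was covered by 99 other genes of arachidonate and eicosanoid metabolism, of which 79 were in the table and 64 had enough counts to test. The edgeR test called 0 of them higher and 0 lower, with 27 higher and 37 lower in CD48-/lo MkPs by direction alone and a median log2 difference of -0.09, against 0.03 over all tested genes. An unadjusted p under 0.05 was reached by 15 of the 64 (23.4%, against 17.2% of all tested genes), and DESeq2 called 7 of them (10.9%, against 5.86%), 3 higher and 4 lower. The subsets did not overlap for 6 higher (9.38%) and 7 lower (10.9%).

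Direct partners of the 9 genes were measured in every library. Tbxa2r, the thromboxane receptor of platelets, averaged 27.6 ± 5.95 CPM in CD48-/lo MkPs and 30.2 ± 17.2 CPM in CD48hi MkPs (SD, n = 3 and 4; edgeR adjusted p = 0.913). Lta4h, the hydrolase that makes leukotriene B4 from leukotriene A4, averaged 337 ± 58.7 CPM in CD48-/lo MkPs and 376 ± 152 CPM in CD48hi MkPs (edgeR adjusted p = 0.835). Ptges3, a cochaperone that can also act as a prostaglandin E synthase, averaged 317 ± 40.1 CPM in CD48-/lo MkPs and 485 ± 128 CPM in CD48hi MkPs (edgeR adjusted p = 0.298). None of these differences passed the test, which does not show the levels to be equal.

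Among the 10 eicosanoid receptors tested, 8 were lower in CD48-/lo MkPs by direction, beside 48.3% of all tested genes, with a median log2 difference of -0.91. The edgeR test called 0 of them, 5 had an unadjusted p under 0.05, and DESeq2 called 1. The subsets did not overlap for 3 of the lower receptors, Ptger2, Ptger4 and Ltb4r1, a pattern held by 7.06% of all tested genes. In the other 6 roles together, 29 of 54 genes were lower by direction. The receptors were singled out after their values were seen, and their difference from the other roles was not tested. Ltb4r1, the high-affinity receptor for the leukotriene B4 that Cyp4f18 inactivates, averaged 0.987 ± 0.369 CPM in CD48-/lo MkPs and 5.43 ± 1.67 CPM in CD48hi MkPs, with a log2 difference of -2.46 ± 0.48 (SE; edgeR adjusted p = 0.069). Lpcat2, which returns fatty acids to lysophospholipids, averaged 2.45 ± 1.68 CPM in CD48-/lo MkPs and 19.1 ± 5.80 CPM in CD48hi MkPs (edgeR adjusted p = 0.0787). Cyp2j6, of a P450 family that oxidizes arachidonic acid, averaged 9.25 ± 2.53 CPM in CD48-/lo MkPs and 1.49 ± 0.830 CPM in CD48hi MkPs (edgeR adjusted p = 0.0708). Ltb4r1, Lpcat2 and Cyp2j6, and the receptors without overlap, were picked out after their values were seen. None passed the edgeR threshold of 0.05 with the filter used here, whereas Ltb4r1, Lpcat2 and Cyp2j6 were among the 7 genes called by DESeq2 (adjusted p = 1.76e-05, 2.67e-05 and 0.000217 from DESeq2), and edgeR called Lpcat2 after a stricter filter on low counts.

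**Figure D4:**
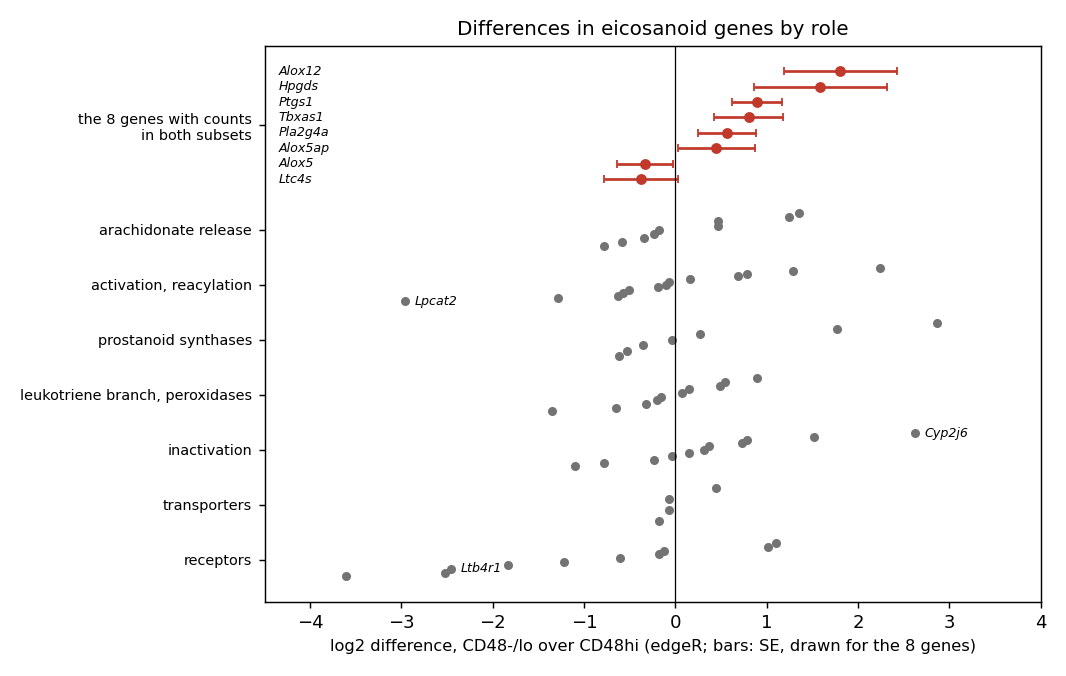
Log2 difference of CD48-/lo over CD48hi for the 8 genes with counts in both subsets (red, with bars of 1 SE) and for the 64 tested pathway genes by role (grey points, without error bars). Lpcat2, Cyp2j6 and Ltb4r1 are named. Of the 10 receptors, 8 lie below 0, and the 8 red genes run from -0.38 for Ltc4s to 1.80 for Alox12.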

How the data were processed

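Per the submitters' notes and the study's methods, GSNAP (2020-12-16) placed the reads on mm10 with Ensembl 98 annotation, and featureCounts (2.0.1) tallied those aligned uniquely. The deposited counts are whole reads per gene with no normalization, and genes under 11 summed counts are not in the table. The cDNA had been primed on poly(A) tails with template switching, amplified and tagmented. The deposited normalised counts and comparison tables were not used.

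Counts were fitted with edgeR 4.0.16 in R 4.3.3 after filterByExpr and TMM scaling, using glmQLFit and glmQLFTest with the subset as the only term, over all 7 libraries and 16653 genes holding 99.95% of the counts. DESeq2 1.42.0, other scalings and filters, a replicate block and leaving out each library were alternatives. On simulated counts for this comparison, 3, 29, 49 and 48 of 50 genes changed 2-, 4-, 8- and 16-fold were recovered, and 9 unchanged genes were called. The changed genes were drawn above a floor on mean CPM, so recovery of genes with lower counts was not simulated. The labels do not say that replicates are separate mice, so p-values measure the spread between libraries. The genes and the lists were chosen with earlier results of these data known. Pathway genes set to be named were the 3 most abundant per kilobase in each role, direct partners of the 9 genes and any gene called. Only some of these are given in the text. Pathway genes named outside that rule were picked after their values were seen.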

Additional observations from a re-analysis of the deposited data

Results flagged for a closer look

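Gpx1, a glutathione peroxidase that reduces lipid hydroperoxides and was among the most abundant pathway genes, had 393.3 CPM in CD48hi replicate 4, far below the 983 to 1090.0 CPM of the other 3 CD48hi libraries. Its mean was 709 ± 243 CPM in CD48-/lo MkPs and 884 ± 330 CPM in CD48hi MkPs (SD, n = 3 and 4), and its log2 difference was -0.32 ± 0.39 (SE). It was the only library that stood apart in this way among 30 genes examined in the CD48hi subset, of which chance alone marks about 1 in 20. None of the 9 genes had such a library among the CD48hi samples, and subsets of 3 were not examined.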

How the results depend on the processing

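The 32 genes called by edgeR over all tested genes became 57 with RLE scaling, 10 with no filter on low counts, 64 with a stricter filter of at least 1 CPM in 3 libraries, and 1028 with DESeq2, and 1 to 72 with a library left out (1 without CD48hi replicate 3 and 72 without CD48-/lo replicate 3). With the replicate block, on libraries with a shared number, 29 were called. Same-numbered libraries did not deviate together (correlations of -0.0549, -0.111 and -0.0368), so the numbers were not taken as pairs. Of the other pathway genes, the stricter filter called 1, Lpcat2, and DESeq2 called 7. With a library left out, 0 were called. Over 112 values of the 8 genes with counts in both subsets, 109 moved by less than the SD between libraries, 3 moved by more (Ptgs1, Alox5 and Alox12, each without a CD48-/lo library as given above), and 0 changed sign. The median of all genes moved by less than 0.1 (log2) under every scaling tried. Depth bears most on Hpgds and Cyp4f18, with at most 257 and 161 counts in a library.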

Other observations

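A further 15 listed pathway genes had counts too few to test. Alox15, the leukocyte 12/15-lipoxygenase, had 0 counts over the CD48-/lo libraries and 63 over the CD48hi libraries, of which 55 were in CD48hi replicate 4. Alox12e, the epidermal 12-lipoxygenase gene of the same family as Alox12, had 0 counts over the CD48-/lo libraries and 46 over the CD48hi libraries, of which 36 were in CD48hi replicate 3. Ptgis, prostacyclin synthase of the vessel wall, had 0 counts over the CD48-/lo libraries and 25 counts in CD48hi replicate 5 alone. Pla2g10, a secreted phospholipase A2, had 7, 0 and 20 counts in CD48-/lo replicates 1, 3 and 4 and 0 over the CD48hi libraries. Each of these traces came mostly from 1 or a pair of libraries, so they are given as counts only.

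Cysltr2, a receptor for the cysteinyl leukotrienes that follow from Ltc4s, averaged 18.3 ± 5.05 CPM in CD48-/lo MkPs and 9.07 ± 4.02 CPM in CD48hi MkPs (SD, n = 3 and 4; edgeR adjusted p = 0.247). Ptger3, a prostaglandin E2 receptor of platelets, averaged 111 ± 26.7 CPM in CD48-/lo MkPs and 169 ± 41.8 CPM in CD48hi MkPs (edgeR adjusted p = 0.332), and it was the most abundant of the 10 eicosanoid receptors tested by mean CPM per kilobase. Erythroid markers, by contrast with the myeloid lists, summed to 293 to 643 CPM in CD48-/lo libraries and 257 to 312 CPM in CD48hi libraries. Of the 12, 10 were higher in CD48-/lo MkPs and 9 of these without overlap, a pattern held by 7.52% of all tested genes. Klf1 and Epor were lower, averaging 75.5 and 47.2 CPM in CD48-/lo MkPs and 123 and 65.5 CPM in CD48hi MkPs, with Epor without overlap.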
